A study of Homo sapiens with 6 samples.

Results

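BCR and ABL1 are the genes joined by the Philadelphia translocation between chromosomes 22 and 9, and each was read here on both sides of its breakpoint. The data were counts of reads across splice junctions in poly(A)+ RNA of K562, an established human cell line from chronic myeloid leukaemia. Of its 6 libraries, 3 carried a knock-in of wild-type U2AF1 and 3 the U2AF1 S34F allele, in which phenylalanine replaces serine in the small U2AF subunit, the protein that recognises the AG ending an intron. Every library thus carried the K562 translocation, and the only labelled difference was the U2AF1 genotype. The labels do not say whether the libraries of a genotype came from separate cultures or from 1 clone, so that p-values measure only the spread between these libraries. Members were the junctions on the plus strand (strand code 1) with both ends inside chr22:23522500-23660300 for BCR or chr9:133589200-133763100 for ABL1, in hg19. There were 187 of 780566 junctions, 104 in BCR and 83 in ABL1.

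BCR encodes a protein with an oligomerisation domain at its start and a GTPase-activating domain for Rac at its end. ABL1 encodes a tyrosine kinase with SH3 and SH2 domains ahead of the kinase domain, and its transcripts begin with one of the alternative first exons 1b and 1a. In the fusion gene the BCR promoter and the first exons of BCR precede ABL1, and the fusion mRNA of K562 is known to join BCR exon 14 to ABL1 exon 2, which yields a kinase that is always active. K562 is also known to carry extra copies of the fused segments. The remaining 3′ part of BCR and the first exon 1b of ABL1 lie outside the fusion gene. Each row of the tables names 1 chromosome, so that a junction from chromosome 22 to chromosome 9 has no row, and reads across the fusion itself were not analysed here.

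Both sequences shown here lie upstream of transcript starts whose spliced products are compared below, that of BCR, which also drives the fusion gene, and that of ABL1 exon 1a, which lies inside the fused part of ABL1. They are 250 bases each from RefSeq (GRCh38.p14, plus strand), at chr22:23180259-23180508 for BCR and chr9:130835004-130835253 for ABL1. The ABL1 start in that table, at 130835254, is 122211 bases downstream of the first base of the gene, which by its place is the start of exon 1a. Capitals mark GC boxes (GGGCGG or CCGCCC, searched on both strands with overlaps counted).
BCR: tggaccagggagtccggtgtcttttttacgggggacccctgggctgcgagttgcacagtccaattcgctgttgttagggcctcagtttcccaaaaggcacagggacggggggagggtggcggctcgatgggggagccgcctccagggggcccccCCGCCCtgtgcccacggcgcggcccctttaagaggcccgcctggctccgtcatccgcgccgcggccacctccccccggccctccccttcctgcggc
ABL1 exon 1a: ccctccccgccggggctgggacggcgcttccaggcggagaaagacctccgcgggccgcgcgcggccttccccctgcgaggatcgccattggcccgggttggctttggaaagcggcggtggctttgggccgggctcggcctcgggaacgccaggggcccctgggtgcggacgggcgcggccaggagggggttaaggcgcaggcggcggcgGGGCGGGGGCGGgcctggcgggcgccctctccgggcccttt
The BCR sequence held 1 GC box and the ABL1 sequence 2, with a G+C content of 70.8% and 78.4%. Such a match is present in 42.6% of the 35116 promoter sequences of this length and is a description of the letters, not of binding.

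The libraries held 18074706 to 39279169 uniquely mapped spliced reads, with S34F replicate 3 the deepest and S34F replicate 2 the shallowest. Wild-type replicate 1 had the lowest mean correlation with its own group over log2 counts of all junctions tested, 0.938, against 0.948 for the other wild-type libraries and 0.940 to 0.942 within S34F. Results that rest on it are given with and without it. Cell type markers, the partners of BCR-ABL1 in signalling and genes of like pattern were not analysed, because gene positions of hg19 were not used here. The S34F base change cannot be read from junction counts.

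Exons were numbered along a chain of non-overlapping annotated junctions, which took in each part the junction with the most reads over the 6 libraries where annotated junctions overlapped. The chain held 22 junctions in BCR, which join 23 exons, and 11 in ABL1, which join exons 1b and 1a to exon 2 and exons 2 to 11 to each other. The chain carried 98.9% of the 29880 unique reads of BCR and 97.9% of the 17548 of ABL1. All chain junctions had the GT-AG motif code. In BCR, 13 chain junctions lay in the fused part, upstream of the breakpoint near 23632700, 1 spanned it (exon 14 to 15) and 8 lay in the remaining part. In ABL1, 10 lay in the fused part, downstream of the breakpoint near 133607200, and the junction of exons 1b and 2 spanned it.

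The fused parts of both genes carried many times more reads per junction than the parts left outside the fusion, in every library of both genotypes. Levels are given as RPM, unique reads per 1000000 unique spliced reads of the library, averaged over the chain junctions of a part. BCR chain junctions of the fused part had 11.4, 14.4 and 12.6 RPM in wild-type replicates 1 to 3, and 12.3, 11.4 and 15.7 RPM in S34F replicates 1 to 3. In the remaining part of BCR wild-type libraries had 1.76, 1.92 and 1.75 RPM, and those of S34F 1.99, 1.72 and 3.04 RPM. The lowest value of the fused part thus lay well above the highest of the remaining part. The log2 ratio of fused to remaining part in BCR was 2.70 ± 0.19 (SD, n = 6), which is 6.48-fold, with a range of 5.18-fold to 7.50-fold over libraries (two-sided exact sign-flip permutation test over the 6 libraries, p = 0.03125, the smallest that 6 libraries allow, and 0.03125 after Benjamini-Hochberg adjustment over both genes).

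The fused part of ABL1 had 9.53, 12.6 and 10.5 RPM in wild type, and 9.90, 10.6 and 13.2 RPM in S34F. The junction of exon 1b to exon 2, which only an ABL1 copy that is intact at the breakpoint can give, had 0.747, 0.882 and 1.34 RPM in wild type, with 1.15, 0.719 and 1.09 RPM in S34F. The log2 ratio in ABL1 was 3.51 ± 0.38 (SD, n = 6), or 11.4-fold, from 7.80-fold to 14.7-fold over libraries (exact sign-flip permutation p = 0.03125, adjusted p = 0.03125). Transcripts from exon 1b also pass through exon 2 and the exons after it, so that the fused part holds reads of intact copies too. The sign of the ABL1 ratio thus followed largely from the structure of the gene. The outcome of its test was largely set in advance, and only the size of the ratio is informative. In BCR, intact transcripts cross both parts, and the known fusion transcript only the fused part. The outcome of the BCR test was thus also largely set in advance, and there too only the size is informative. Averaging all annotated junctions in place of the chain, rarely used ones included, gave log2 ratios of 3.11 for BCR and 4.39 for ABL1. Reads per junction need no correction for exon length, but how well reads map at each junction was not tested. In bulk RNA, fewer cells with a transcript and less of it per cell cannot be told apart, and gene copies and transcription per copy cannot be told apart either.

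**Figure D1:**
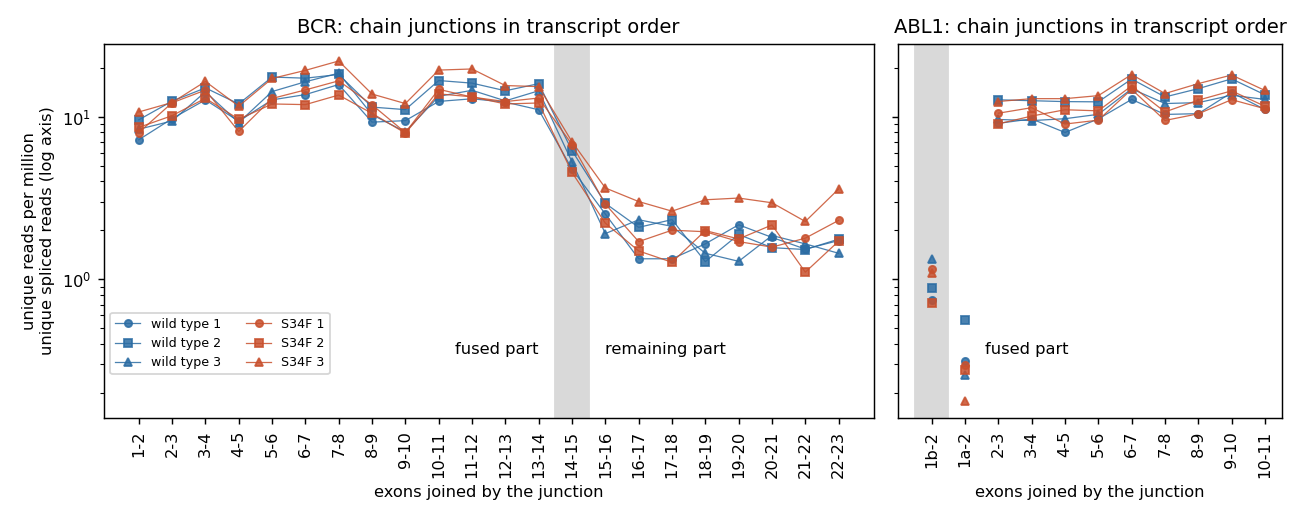
RPM (unique reads per 1000000 unique spliced reads, log axis) at each chain junction of BCR (left) and ABL1 (right), in transcript order, with 1 line per library and the breakpoint-spanning junction shaded. All 6 libraries fall at BCR exon 14 to 15 and again at exon 15 to 16, and rise at ABL1 exon 2 to 3, while both ABL1 first-exon junctions (points on the left) stay at or below 1.34 RPM.

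The fall in BCR began at the breakpoint and came in 2 steps. Junction 13-14, the last of the fused part, had 280, 397 and 279 unique reads in wild type and 305, 219 and 600 in S34F. The spanning junction 14-15 (23632601 to 23634727) had 121, 154 and 102 reads in wild type against 158, 82 and 275 in S34F. Relative to the reads into exon 14, from 36.6% to 51.8% went on within BCR, and the groups overlapped (39.5% ± 3.4 in wild type and 45.0% ± 7.2 in S34F, SD, n = 3 each).

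Junction 15-16 (23634826 to 23637210) then had 64, 73 and 37 reads in wild type against 68, 40 and 143 in S34F. Its pooled ratio to junction 14-15 was 0.476, after 0.429 for junction 14-15 over 13-14. Over the other 19 exons of BCR the pooled ratio of the junction downstream to the one upstream ran from 0.637 at exon 8 to 1.59 at exon 10. In pooled reads both falls at exons 14 and 15 were therefore outside the range of all other BCR exons. Across libraries the ratios overlapped: they reached 0.518 at exon 14 and 0.529 at exon 15, against 0.513 at exon 21 in S34F replicate 2. Within each library exons 14 and 15 had the lowest ratios. The second one lay beyond the breakpoint, at an exon outside the fusion gene.

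Within the fused part of BCR the level varied 2.01-fold, from 1344 reads over the 6 libraries at junction 1-2, across the longest chain intron of the gene (71559 nt), to 2706 at junction 7-8. Within the remaining part it varied 1.63-fold, from 260 at junction 21-22 to 425 at junction 15-16. Exon 1 of BCR encodes the oligomerisation domain that the fusion kinase keeps, and the last exons encode the Rac GTPase-activating domain that it lacks. The step between the parts was thus larger than the spread inside either part.

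Reads entering ABL1 at exon 2 from within ABL1 were few beside the reads leaving it. Junctions into exon 2 summed to 35, 45 and 36 reads in wild type against 36, 19 and 63 in S34F. Junction 2-3 (133729625 to 133730187), the first after the fusion point, had 231, 316 and 186 reads in wild type against 246, 163 and 486 in S34F. Reads from within ABL1 thus came to 16.2% ± 2.7 of those leaving exon 2 in wild type and 13.1% ± 1.5 in S34F (SD, n = 3 each), with overlapping groups. Over the other 8 exons of ABL1 the pooled ratio of downstream to upstream junction ran only from 0.752 to 1.39, against 10.9 for junction 2-3 over junction 1b-2.

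BCR exon 14 thus received more reads than it passed on within BCR, and ABL1 exon 2 passed on more than it received within ABL1. The excess at BCR exon 14 was 159, 243 and 177 reads in wild type against 147, 137 and 325 in S34F. The excess at ABL1 exon 2 was 196, 271 and 150 reads in wild type against 210, 144 and 423 in S34F. The ABL1 excess divided by the BCR excess was 1.07 ± 0.20 in wild type and 1.26 ± 0.19 in S34F (SD, n = 3 each), and from 0.847 to 1.43 over libraries. Both excesses were thus within 1.43-fold of each other in each library. They are differences of junction counts, not counts of reads across the fusion.

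**Figure D2:**
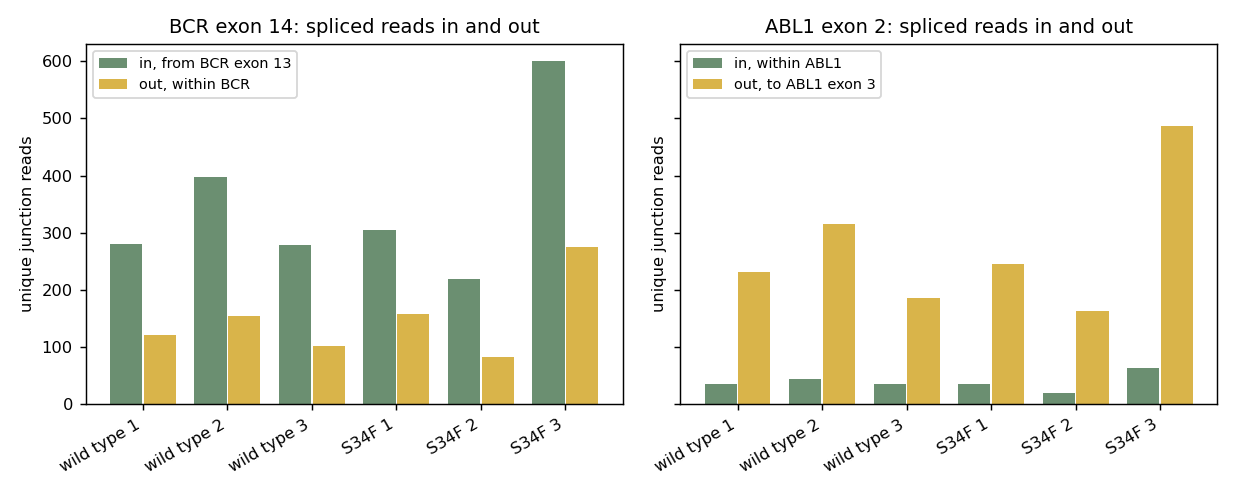
Unique junction reads into and out of BCR exon 14 (left) and ABL1 exon 2 (right) in each library; bars are counts, with no error bar as each is 1 library. More reads enter BCR exon 14 than leave it within BCR, and fewer enter ABL1 exon 2 within ABL1 than leave it, in each of the 6 libraries.

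Both first exons of ABL1 gave few reads, exon 1b more than exon 1a. Exon 1b, upstream of the breakpoint, begins the form whose N terminus carries a myristoyl group that helps to hold the kinase inactive. Junction 1b-2 (133589843 to 133729450) had 19, 22 and 26 reads in wild type against 27, 13 and 43 in S34F. Junction 1a-2 (133710913 to 133729450) lies wholly inside the fused part, downstream of the promoter shown above, and had 8, 14 and 5 reads in wild type against 7, 5 and 7 in S34F. Exon 1a was below exon 1b in each library.

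Of the reads of both first exons, exon 1a took 28.2% ± 11 in wild type and 20.8% ± 6.9 in S34F (SD, n = 3 each), and the groups overlapped. Intervals for single libraries were wide, such as 38.9% in wild-type replicate 2 (95% Clopper-Pearson interval 23.1% to 56.5%) and 27.8% in S34F replicate 2 (9.69% to 53.5%). These intervals hold counting error alone, and PCR copies cannot be told from separate molecules. The test of splice site choice required at least 20 reads at a site in every library. S34F replicate 2 had 18 reads of both first exons and fell below that, so that this choice was not tested. The other libraries had 27 to 50 such reads. Exon 1b was also joined to an annotated acceptor 3 nt further downstream (133729453) by 2, 5 and 1 reads in wild type against 0, 1 and 4 in S34F.

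Multi-mapped reads, which fit more than 1 place in the genome, were a larger pooled share of the parts outside the fusion, though not at every junction. They made up 1.40% of the reads at annotated junctions in the fused part of BCR and 6.06% in the remaining part. Copies related to BCR are known to lie elsewhere on chromosome 22. In ABL1 multi-mapped reads made up 0.914% in the fused part and 16.0% at the junctions that span the breakpoint. The spanning junction to the acceptor at 133729453 had 23 multi-mapped and 13 unique reads over the 6 libraries. The spanning junction 1b-2 had 8 and 150. Junction 1a-2, inside the fused part, had 13 and 46, a larger multi-mapped share than at 1b-2. The ABL1 contrast thus did not hold between these 2 first-exon junctions. With multi-mapped reads added, the log2 ratio of fused to remaining part was 2.63 in BCR and 3.44 in ABL1. An annotated junction from BCR exon 13 to exon 15 (23631809 to 23634727), which would omit exon 14, was listed with 10 multi-mapped reads and 0 unique reads over the 6 libraries.

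No difference between S34F and wild type was called in the counts of any BCR or ABL1 junction. Of the members, 22 junctions of BCR and 12 of ABL1 had enough reads to be tested, and 82 and 71 did not. With edgeR's quasi-likelihood test and an adjusted p under 0.05 over 116446 junctions, 0 of the 22 and 0 of the 12 were called, against 0.295% of all junctions tested. At an unadjusted p under 0.05 there were 2 in BCR and 0 in ABL1, against 16176 of all 116446. DESeq2 also called 0 in both genes, against 1472 of all 116446. The 34 junctions that could be tested are few, and a p above the threshold does not show equal levels.

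The fitted log2 fold changes, S34F over wild type, were small in the fused parts. They ran from -0.10 to 0.20 over the 13 BCR chain junctions of the fused part, with a median of 0.0032 and standard errors of 0.16 to 0.19. For the 9 ABL1 chain junctions of the fused part that were tested they ran from -0.08 to 0.12, with a median of 0.041. The median over all 116446 junctions was 0.011. The sign of single junctions in the fused parts turned when 1 library was left out: without wild-type replicate 1, 9 of 13 in BCR and 7 of 9 in ABL1 were lower in S34F.

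In the remaining part of BCR all 8 chain junctions were fitted higher in S34F, with a median log2 fold change of 0.26 and a range of 0.029 to 0.67. Junction 18-19 had 42, 32 and 28 reads in wild type against 46, 36 and 121 in S34F (log2 fold change 0.67, SE 0.26, edgeR adjusted p = 0.289), and junction 22-23 had 44, 44 and 28 in wild type against 54, 31 and 141 in S34F (0.61, SE 0.27, edgeR adjusted p = 0.346). The high value was in S34F replicate 3 in both cases, also the deepest library. Without that library 4 of the 8 junctions were higher and 4 lower, with a median of 0.028.

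The same held for whole parts. In RPM per chain junction, the mean of the fused part of BCR was 12.8 ± 1.5 in wild type and 13.1 ± 2.3 in S34F, and of the fused part of ABL1 10.9 ± 1.6 and 11.2 ± 1.7 (SD, n = 3 each). The remaining part of BCR had 1.81 ± 0.094 and 2.25 ± 0.70, and the 1b-2 junction of ABL1 0.990 ± 0.31 and 0.988 ± 0.23. The log2 ratio of fused to remaining part was 2.81 ± 0.11 in wild type and 2.58 ± 0.18 in S34F for BCR, and 3.49 ± 0.46 and 3.53 ± 0.39 for ABL1. Two-sided exact permutation p-values for the 6 values were from 0.2 to 1 and all were 1 after Benjamini-Hochberg adjustment, but 3 against 3 libraries allow no p below 0.1, so that no value could pass. The BCR log2 ratio was lower in S34F by all 12 alternatives, with differences of -0.31 to -0.14. These reuse the same libraries and are not separate support. The ratio reached that smallest exact permutation p of 0.1 with multi-mapped reads added (-0.27) and with medians (-0.30). Its exact permutation p was also 0.1 without S34F replicate 2 (-0.31).

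**Figure D3:**
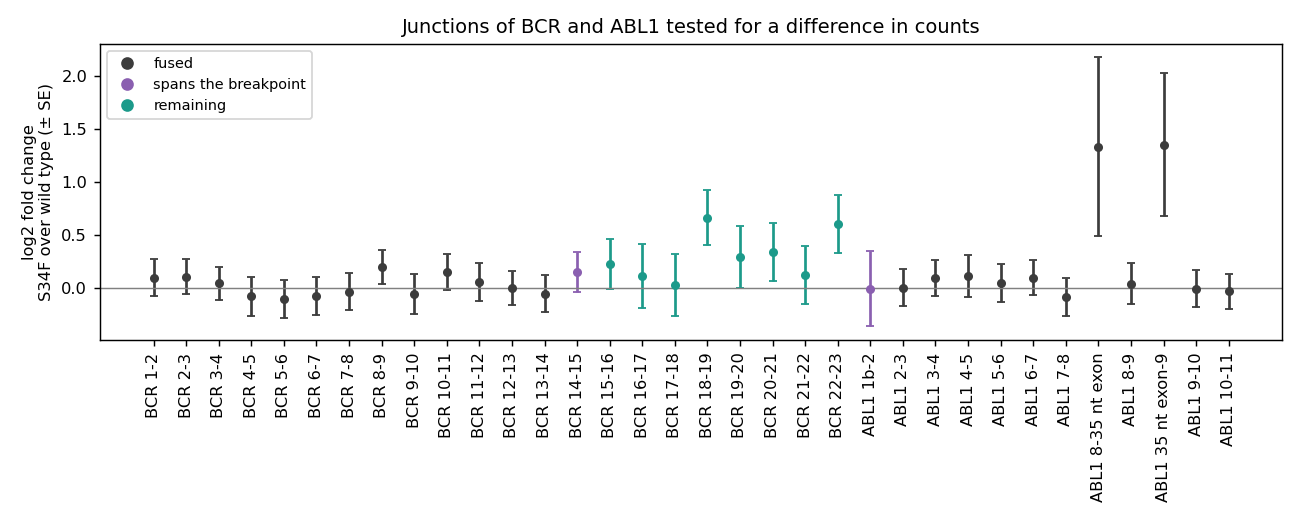
Log2 fold change of S34F over wild type, with its standard error, for each of the 34 BCR and ABL1 junctions tested in edgeR, coloured by part. Points of the fused parts on the chain lie between -0.10 and 0.20, those of the remaining part of BCR between 0.029 and 0.67, and the widest bars are at both junctions of an unannotated ABL1 exon.

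Choice of splice sites was compared next, as the share of reads at a donor that went to each acceptor, and at an acceptor that came from each donor. A call needed an adjusted p under 0.05 and a difference of at least 10 percentage points. With edgeR, 0 of 9 junctions tested in BCR and 0 of 8 in ABL1 were called for acceptor choice, against 2.11% of all 51522 tested. Of these, 1 and 3 had an unadjusted p under 0.05, against 10263 of all 51522. For donor choice 0 of 6 in BCR and 0 of 7 in ABL1 were called, against 0.934% of 48269 (2.04% with the adjusted p alone). Here 0 and 2 had an unadjusted p under 0.05, against 8329 of all 48269. DESeq2 called 0 in both genes, against 150 of 51522 for acceptor choice and 185 of 48269 for donor choice. Where libraries of a genotype vary widely, the absence of a call is weak evidence. The largest difference was 3.38 percentage points in BCR and 2.71 in ABL1.

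The donor of ABL1 exon 6, in the kinase domain, held the only members with an adjusted p under 0.05. Of its reads, 1 of 325, 4 of 428 and 2 of 289 went elsewhere than to exon 7 in wild type, against 9 of 354, 6 of 285 and 30 of 742 in S34F. All S34F libraries were thus above all wild-type libraries. The share that went to exon 7 was 99.4% ± 0.32 in wild type and 97.1% ± 1.0 in S34F (SD, n = 3 each; change in log2 odds -2.16, SE 0.61, edgeR adjusted p = 0.0407). An unannotated acceptor 72 nt inside exon 7 (133750326) took 0 reads in each wild-type library and 2, 2 and 8 in S34F (edgeR adjusted p = 0.0491). A count of 0 allows up to 0.923%, 0.701% and 1.04% of the donor's reads in wild-type replicates 1 to 3.

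These 2 of 8 ABL1 junctions share 1 donor and are not independent, and 4.63% of all junctions tested for acceptor choice passed the same threshold. Skipping of exon 7 (133748425 to 133753801) had 1, 1 and 0 reads in wild type against 2, 3 and 16 in S34F, of which S34F replicate 3 gave most. A BCR-ABL1 transcript without exon 7 is known from patients. The edgeR adjusted p of this junction was 0.0811 at the donor and 0.0849 at the acceptor. The difference at the exon 7 acceptor did not pass when any 1 library was left out, with edgeR adjusted p-values from 0.0617 without wild-type replicate 1 to 0.228 without S34F replicate 3, nor with DESeq2 (adjusted p = 0.245). The change in log2 odds itself ran from -2.58 to -1.79 in those fits and was -2.19 in DESeq2. Over the whole table, 130 of 41558 junctions had an adjusted p under 0.05 without S34F replicate 3, the fewest of those fits. The most were 4624 of 46510 without wild-type replicate 1, and DESeq2 had 230 of 51522. The acceptor inside exon 7 likewise had edgeR adjusted p-values from 0.0568 without wild-type replicate 1 to 0.143 without wild-type replicate 2, with changes of 4.44 to 4.78, and too few reads for the test without S34F replicate 3.

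An unannotated exon of 35 nt (133755105 to 133755139), between ABL1 exons 8 and 9, divided the libraries in a way that the genotype did not. Retention of 35 bases from this intron in BCR-ABL1 mRNA has been described in chronic myeloid leukaemia and cuts the kinase short. Exon 8 was joined to it by 17, 0 and 2 reads in wild type against 13, 10 and 37 in S34F. It was joined to exon 9 by 14, 1 and 2 reads in wild type against 14, 12 and 25 in S34F. Wild-type replicate 1 was thus at the level of the S34F libraries, and the other two wild-type libraries were at or near 0.

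In wild-type replicate 1 the exon took 6.03% of the reads of the exon 8 donor (95% Clopper-Pearson interval 3.55% to 9.48%), beside 5.06%, 4.20% and 5.58% in the S34F libraries. Wild-type replicates 2 and 3 had 0% (0% to 0.992%) and 0.833% (0.101% to 2.98%). Fitted over all 6 libraries, the log2 odds differed by 1.34 (SE 0.67, edgeR adjusted p = 0.262) at the donor and 1.34 (SE 0.63, edgeR adjusted p = 0.270) at the exon 9 acceptor. Without wild-type replicate 1 it was 3.84 (edgeR adjusted p = 0.00248) and 3.17 (edgeR adjusted p = 0.00880), with differences of 4.53 and 4.20 percentage points that stay under the minimum of 10. That library was left out after its values were seen, and leaving out either of the others moved the change the other way: it was 0.57 (edgeR adjusted p = 0.681) and 0.66 (edgeR adjusted p = 0.679) without wild-type replicate 2, and 1.00 and 1.03 without wild-type replicate 3. In the fits without wild-type replicate 1, 9.94% and 6.5% of all junctions tested had an adjusted p under 0.05.

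**Figure D4:**
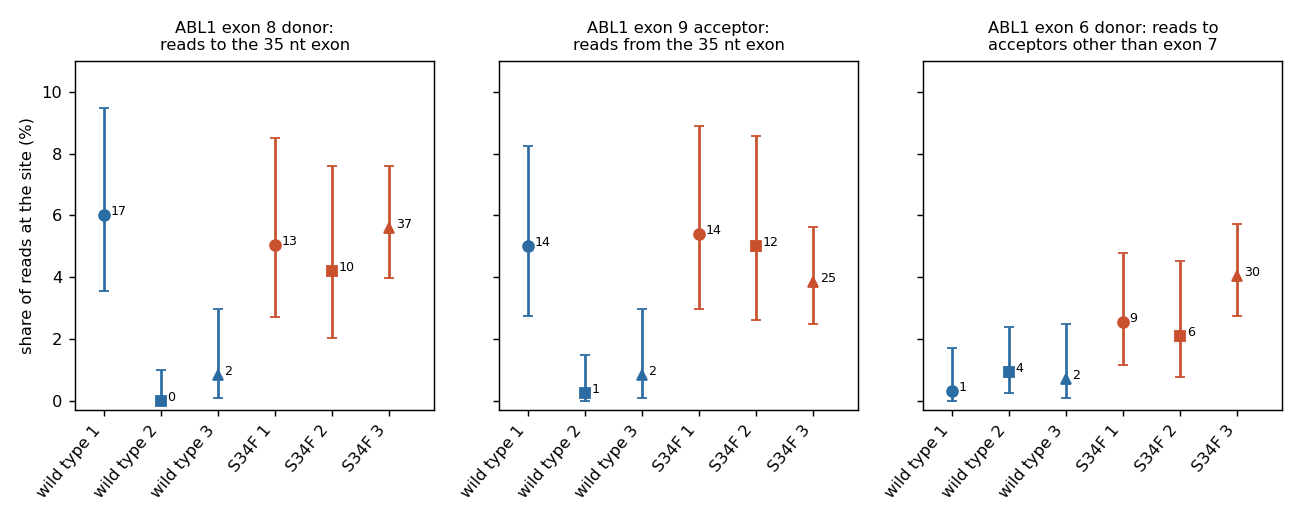
Share of reads (%) joined to the 35 nt exon at the ABL1 exon 8 donor and exon 9 acceptor, and share of exon 6 donor reads that go to acceptors other than exon 7, for each library with its 95% Clopper-Pearson interval and the number of reads beside each point. Wild-type replicate 1 lies with the S34F libraries in the first 2 panels and with wild type in the last.

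Other exons of both genes were rarely skipped. In BCR, 15 of 21 internal exons had no unique read that joined their neighbours directly, and in ABL1 6 of 9; exon 14 of BCR is among the 15, with the multi-mapped reads given above. Exon 21 of BCR (23656155 to 23656260, 106 nt), in the remaining part, was the exception. Its annotated skipping junction had 11, 8 and 4 reads in wild type against 7, 6 and 27 in S34F. Skipping was 16.1% ± 5.1 in wild type and 17.6% ± 3.0 in S34F (SD, n = 3 each), with overlapping groups (edgeR adjusted p = 0.959 at the donor and 0.841 at the acceptor). Every other internal exon of BCR was skipped in under 2% of pooled reads, and ABL1 exon 7, at 1.10%, was the highest in that gene.

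Unannotated junctions made up 67 of the 104 BCR members and 71 of the 83 ABL1 members, but carried only 0.773% and 2.07% of the unique reads. In BCR, 64 of them had at most 10 reads over the 6 libraries, as had 64 in ABL1. Per library they took 0.650% ± 0.28 of BCR reads in wild type and 0.918% ± 0.14 in S34F, and 1.73% ± 0.73 and 2.27% ± 0.43 of ABL1 reads (SD, n = 3 each). The groups overlapped in both genes, and wild-type replicate 1 was the highest wild-type library in both, at 0.906% and 2.51%.

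The unannotated BCR junction with the most reads left exon 1 for an acceptor inside the first intron (23524427 to 23545555). It had 7, 2 and 1 reads in wild type against 11, 7 and 20 in S34F. Its share of exon 1 reads went from 1.67% to 4.74% (change in log2 odds 1.53, SE 0.61, edgeR adjusted p = 0.146). Wild-type replicate 1 matched S34F replicate 2 in reads, and without wild-type replicate 1 the change was 2.64 (edgeR adjusted p = 0.0213). It was 1.13 without wild-type replicate 2 (edgeR adjusted p = 0.405) and 1.21 without wild-type replicate 3 (edgeR adjusted p = 0.316). The next was a junction from exon 4 to an acceptor at 23604098, with 6, 5 and 5 reads in wild type against 6, 1 and 16 in S34F. The other unannotated BCR junctions among the 5 with the most reads had 12 reads in all (23524427 to 23530035), 9 reads (skipping of exon 3) and 8 reads, a tie of 3 junctions (skipping of exon 9, 23545327 to 23545555 and 23530085 to 23531526).

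In ABL1 the first intron held an unannotated exon of 49 nt (133657191 to 133657239), between the breakpoint and exon 1a. A junction into it had 5, 8 and 6 reads in wild type against 2, 1 and 6 in S34F, and a junction from it to exon 2 had 5, 3 and 3 in wild type against 0, 0 and 4 in S34F. Both lay inside the fused part, as did 68 of the 71 unannotated junctions of ABL1. They had too few reads for the tests of counts.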

How the data were processed

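Junctions were counted in 6 libraries, 3 per genotype, in the deposited tables of the STAR aligner's junction layout; STAR and build hg19 are per the submitters' processing notes. The aligner version, annotation and filters are not given in the sources used here. The values deposited by the authors are raw counts of unique and of multi-mapped reads at each junction. The tables were joined on position, a missing junction counted as 0, and RPM is unique reads per 1000000 unique spliced reads of a library. Depth was 18074706 to 39279169 reads.

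Counts were tested with edgeR 4.0.16 (R 4.3.3; quasi-likelihood, TMM, filterByExpr) over all junctions. Splice site choice was tested with 2 counts per library and site and an intercept per library, over sites with at least 20 reads in every library and 10 on each side. DESeq2 1.42.0 was an alternative; others were the low-count filter, multi-mapped reads, overhang, scaling and single libraries left out. Fits were tested on simulated data. For splice site choice, a first simulation with 1 wide spread for every splice site recovered no change and was replaced by each site's own spread between libraries. Changes in choice were simulated only at sites with many reads where both choices were common. Nearly all sites tested in BCR and ABL1 had a rare choice, so that recovery of changes like theirs was not tested. Other values came from scipy 1.17.1, numpy 2.4.6 and pandas 2.3.3 under Python 3.11.15. Named junctions were those at the breakpoint, the first exons, the extremes of each part, those past an adjusted p of 0.05 and the top 5 unannotated ones. Members and lists were chosen with earlier results of these data known. The authors' maximum overhang per junction, deposited in nt, served only as a filter.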

Additional observations from a re-analysis of the deposited data

Results flagged for a closer look

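Reads on the opposite strand code inside the BCR window were not part of any comparison. They came to 0.125 RPM on average in S34F and 0.0267 RPM in wild type, and the lowest S34F library, at 0.0852, lay just above the highest wild-type library, at 0.0802. This rests on 11 reads in S34F and 2 in wild type, and its source was not tested. The BCR window was picked because its groups did not overlap, so that the separation itself is no support. In the ABL1 window such reads overlapped, with 5, 10 and 5 in wild type against 7, 7 and 7 in S34F.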

How the results depend on the processing

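No junction of BCR or ABL1 was called under any alternative run, except that 2 ABL1 junctions passed for acceptor choice with no minimum difference. That setting passed 2386 of all 51522. Calls over the whole table ran from 0 of 121679 (without wild-type replicate 2) to 2907 of 612619 (no low-count filter) for counts. With the minimum difference, acceptor choice ran from 77 of 41558 without S34F replicate 3 to 1932 of 46510 without wild-type replicate 1. Donor choice ran from 4 of 39059 to 1210 of 43726 in those runs. Where almost none were called anywhere, 0 calls in BCR and ABL1 are uninformative. The log2 ratio of fused to remaining part kept its direction throughout, which was largely set in advance in both genes. Leaving out 1 library gave 2.65 to 2.76 for BCR and 3.43 to 3.62 for ABL1, with an exact sign-flip permutation p of 0.0625, the smallest that 5 libraries allow. Of the log2 differences of S34F from wild type, that of the remaining part of BCR (0.033 to 0.47) and of the BCR log2 ratio (-0.31 to -0.14) kept their sign, and the other 4 were near 0 and turned: with medians in place of means the fused part of BCR was at -0.0076, and leaving out single libraries gave -0.11 to 0.13 there, -0.085 to 0.17 for the fused part of ABL1, -0.17 to 0.28 for the 1b-2 junction and -0.23 to 0.25 for the ABL1 log2 ratio. In the junction fit, ABL1 1b-2 was at 0.014 without a low-count filter, 0.030 with library totals and -0.17 to 0.26 with 1 library left out. Skipping of BCR exon 21 at its donor ran from -0.17 to 0.31 in log2 odds with 1 library left out. The cause was not tested. The labels do not say whether the replicate numbers pair the libraries. Same-numbered libraries had correlations of -0.18, -0.14 and -0.018 in their deviations from the group means. These show no sign of pairing, but so few values cannot exclude it. With the replicate number as a block, 0 BCR and 0 ABL1 junctions were called. Over the whole table there were 50 of 116446 for counts, 922 of 51522 for acceptor choice and 347 of 48269 for donor choice. In that block fit the ABL1 exon 7 acceptor had an edgeR adjusted p of 0.0731. Depth left 82 BCR and 71 ABL1 junctions out of the tests of counts.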
